A study of Saccharomyces cerevisiae with 118 samples.

Results

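The autophagy genes of budding yeast were followed as messenger RNA through ageing on different diets. They were taken as the rows of the expression tables whose name is ATG followed by a number, which gave 28 of 6664 nuclear genes. Autophagy genes that the tables list under a systematic or other name, such as VPS30 (Atg6) and SNX4 (Atg24), fall outside that name and are given once, with the related lists.

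Poly(A)-selected RNA was sequenced from 118 samples of Saccharomyces cerevisiae MEP diploid cells. In the mother enrichment program (MEP) estradiol switches on a Cre recombinase that a daughter-specific promoter, SCW11, drives, the floxed UBC9 and CDC20 genes are lost in daughters, and biotin-labelled mothers are purified, so every strain compared here, wild type included, carries these alleles and every aged culture received estradiol. Aged mothers were set against log phase cells of the same culture medium. Per the paper, log phase cells were harvested before estradiol was added and held a large share of newborn daughters. Age therefore cannot be told apart from estradiol, purification and daughter content in these comparisons. The paper reports equivalent change over the whole transcriptome on glucose and galactose when purified young mothers replaced log phase cells. Wild type was grown in rich medium with glucose (YPD; 3 log phase samples, 4 of 24 h, 4 of 48 h and 1 of 72 h), galactose (YPGal; 3 at each of log phase, 24 h and 48 h), fructose (2 at each), and with 1 sample per point sucrose, raffinose with galactose, raffinose alone and potassium acetate. Further strains were PGPD-HAP4, in which a GPD promoter overexpresses 1 copy of the respiration regulator HAP4, on glucose (2 samples per age), cox9 gal80, which lacks a cytochrome c oxidase subunit and the repressor of the galactose genes, on galactose (2 per age), cat8 on galactose (2 per age) and snf4 on galactose (1 at log phase and 2 at 24 h). In a shift experiment, wild type on glucose or galactose was sampled at log phase and 24 h, and at 48 h after the second day on the same or on the other sugar (3 samples in each of 8 groups). From glucose, PGPD-HAP4 mothers of 48 h were sorted into fractions of low, medium and high wheat germ agglutinin (WGA) stain, a lectin that binds the chitin of bud scars (2 samples each), with 1 low and 1 high fraction of wild type. A further 13 deletion strains on glucose, adr1, cat8, clb5, dot6 tod6, gcn4, hap4, mig1, pmr1, rox1, sip4, snf4, tec1 and yak1, had 1 library at log phase and 1 at 48 h, and a 24 h library of pmr1 was not used here. The labels do not say whether replicates came from separate cultures, so p-values measure the spread between these samples.

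Autophagy encloses cytoplasm or selected cargo in a double membrane, the autophagosome, which fuses with the vacuole, where the contents are broken down and exported. The Atg1 kinase complex starts the process, Atg9 vesicles and a lipid kinase build the membrane, a pair of ubiquitin-like systems attach Atg8 to it, and receptors tie cargo such as mitochondria or vacuolar enzymes to Atg8. In yeast it is known as a response to starvation, and its genes are held low in cells growing on plentiful glucose and nitrogen.

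The promoters of ATG8, ATG33 and ATG34 are shown because these 3 genes had the largest rises from log phase to 48 h on glucose and on fructose. Each stretch was read from the reference genome (build R64) from 250 bases before the start codon to 50 bases into the gene, and capitals mark matches, on either strand, to 5 motifs: the stress element STRE (AGGGG), which Msn2 and Msn4 bind, the core of the URS1 element (GGCGGC), which Ume6 binds, a Gcn4 site (TGACTC), a site (GATAAG) for factors of the GATA family and the box that the Hap complex binds (CCAAT).
ATG8 promoter, chrII:80682-80981, minus strand: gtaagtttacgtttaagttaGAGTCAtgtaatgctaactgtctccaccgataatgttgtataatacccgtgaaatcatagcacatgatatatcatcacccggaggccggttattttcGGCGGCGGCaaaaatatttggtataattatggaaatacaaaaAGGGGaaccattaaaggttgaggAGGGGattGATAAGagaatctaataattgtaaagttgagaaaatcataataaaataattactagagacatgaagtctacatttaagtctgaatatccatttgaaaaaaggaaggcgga
ATG33 promoter, chrXII:840071-840370, plus strand: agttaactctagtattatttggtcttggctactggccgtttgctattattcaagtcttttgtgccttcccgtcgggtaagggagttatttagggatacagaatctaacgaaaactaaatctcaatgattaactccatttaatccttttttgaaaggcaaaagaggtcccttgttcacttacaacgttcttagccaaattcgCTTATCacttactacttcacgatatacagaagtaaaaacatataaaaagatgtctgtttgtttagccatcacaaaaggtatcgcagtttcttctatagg
ATG34 promoter, chrXV:165464-165763, plus strand: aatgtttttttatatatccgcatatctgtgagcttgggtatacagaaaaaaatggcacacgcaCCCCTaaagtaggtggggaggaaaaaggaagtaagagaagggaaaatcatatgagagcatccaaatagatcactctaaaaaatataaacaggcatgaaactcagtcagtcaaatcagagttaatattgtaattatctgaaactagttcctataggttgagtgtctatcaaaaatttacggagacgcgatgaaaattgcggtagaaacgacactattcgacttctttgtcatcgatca
The ATG8 promoter held 6 matches: STRE at -91 and -68, the URS1 core at -133 and -130, which overlap by 3 bases, a Gcn4 site at -230 and a GATA site at -60, counted from the start codon. ATG33 held a single GATA match at -49 and ATG34 a single STRE match at -187. Over the 28 autophagy promoters, STRE was found in 7, the URS1 core in 2 (ATG8 and ATG19), the Gcn4 site in 6, the GATA site in 9 and the CCAAT box in 6. Among all 6663 promoters of this length the shares were 21.4%, 5.19%, 8.09%, 14.4% and 44.4% in the same order. A match is a description of letters, and 11 of the 28 promoters, those of ATG1, ATG11, ATG22 and ATG26 among them, held no match.

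The tables gave between 2901884 and 15288342 reads on nuclear genes per sample in the main set of 59 samples, 4542794 to 16704695 in the 24 shift samples, 3725321 to 22453467 in the 27 samples of the deletion set and 561582 to 5483467 in the 8 sorted fractions, which are the shallowest. Deleted genes had at most 21 reads in the strains that lack them, and HAP4 had 3896 to 8754 normalised reads in the unsorted PGPD-HAP4 samples, against 254 to 1950 in wild type on glucose. In the sorted fractions it had 2286 to 3532 in PGPD-HAP4, against 1261 and 1456 in wild type. No 50-base stretch of any member recurs elsewhere in the genome and no member overlaps another gene on its own strand. Values below are normalised read counts, which are reads scaled by a size factor per sample, and a member is said to rise or fall where limma gave an adjusted p under 0.01 over all genes tested. All 28 members passed the filter on low values in each of the 27 tests.

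Most autophagy genes were below the median gene in young cells. On the RPKM scale, that is reads divided by gene length and by the sample's total, the 28 members had a median of 16.4 in wild type at log phase on glucose, against 32.2 over all genes, and 25 of the 28 lay below that all-gene median. At 48 h on glucose the members' median was 43.4, against 54.3 over all genes, with 19 below it. The highest member on this scale was ATG8 at 48 h, with 363 ± 38.3 (SD, n = 4), against 25.5 ± 6.72 (SD, n = 3) at log phase. ATG27, a membrane protein that helps Atg9 move, was the highest at log phase, with 148 ± 6.22 (SD, n = 3), and ATG10, the conjugating enzyme of Atg12, the lowest, with 3.71 ± 0.655 (SD, n = 3).

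**Figure D1:**
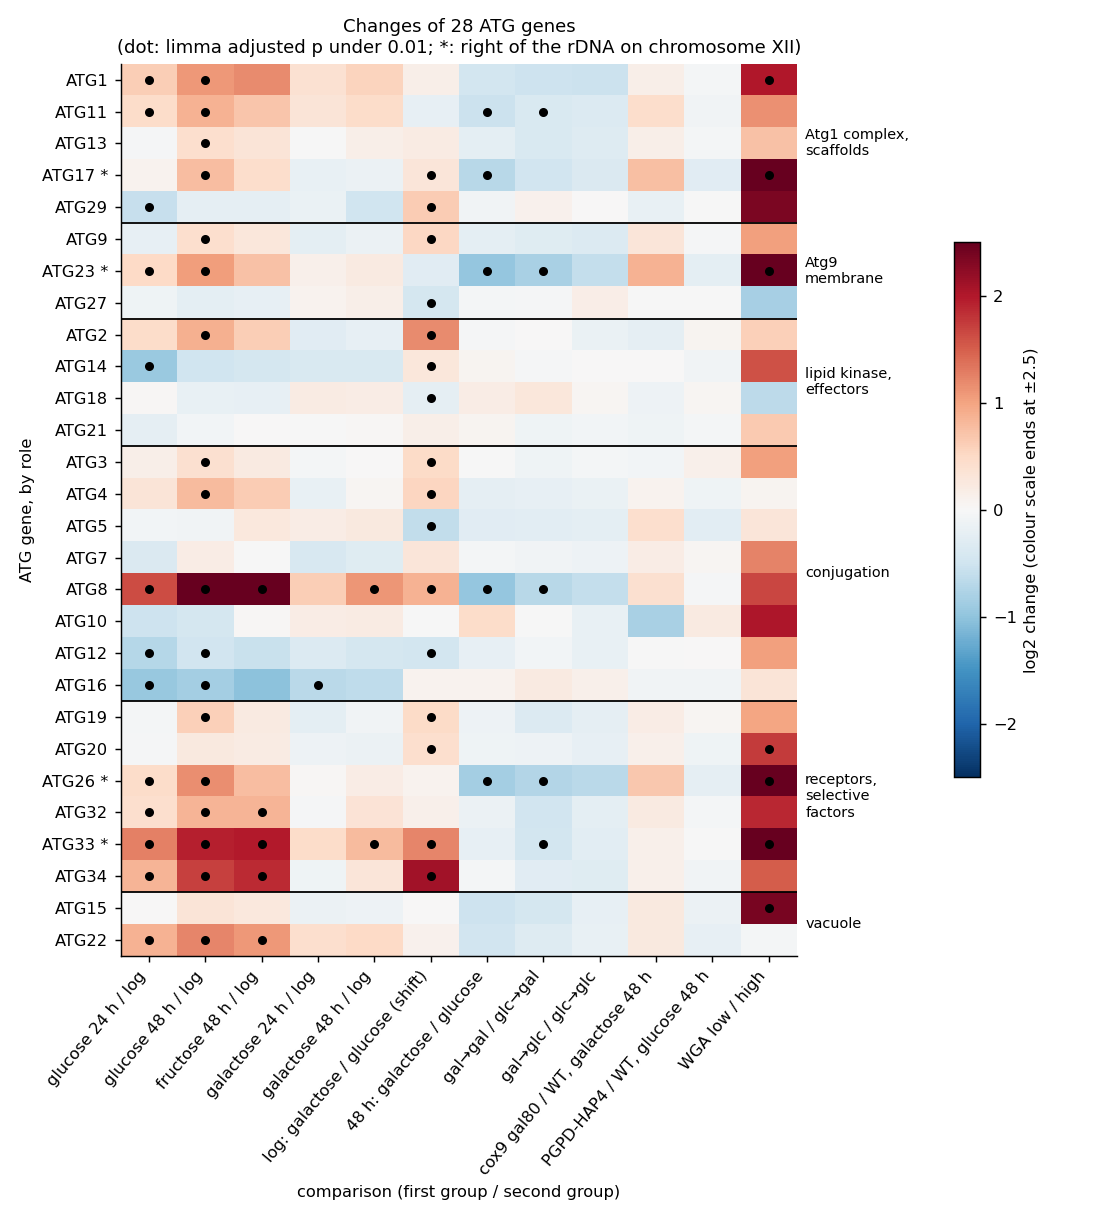
Log2 change of each of the 28 ATG genes, in rows grouped by role, in 12 comparisons, in columns, with red for higher and blue for lower in the first group named. Dots mark limma adjusted p under 0.01 and asterisks the 4 members right of the rDNA on chromosome XII. ATG8, ATG33 and ATG34 carry dots in the glucose and fructose columns, while the PGPD-HAP4 and cox9 gal80 columns carry none.

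Most autophagy genes were higher at 48 h on glucose than at log phase. Of the 28 members, 16 rose and 2 fell, against 49.9% of all genes tested called in either direction, 19.8% higher and 30.2% lower. The members' median change was 0.42 on the log2 scale, against -0.14 over all genes. The 16 rises were also called on the values as deposited, without quantile normalisation, a scaling on which 20 members rose and 1 fell, the median of all genes was 0.15 higher, and 1599 genes rose and 1500 fell over the whole table, against 1143 and 1746. By role, 4 of 5 members of the Atg1 complex and scaffolds rose, 2 of 3 of the Atg9 group, 1 of 4 of the lipid kinase group, 3 of 8 of the conjugation systems, 5 of 6 receptors and selective factors, and 1 of 2 vacuolar proteins. Leaving out single samples gave 13 to 17 calls. ATG17, ATG23, ATG26 and ATG33 lie right of the ribosomal DNA on chromosome XII. All 4 rose, against 44.2% of the other 278 genes of that segment. On the other chromosomes 12 of 23 members rose and 2 fell, against 18.3% of genes called higher and 31.9% lower. The part of the segment was not tested.

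ATG8, the ubiquitin-like protein that coats the growing membrane, changed most. It had 881, 768, 824 and 917 normalised reads in the 48 h samples on glucose, against 85.6, 116 and 65.1 at log phase, and 349, 306, 398 and 359 at 24 h stood between. Neither aged group overlapped the young one. The change at 48 h was 2.78 ± 0.14 on the log2 scale (SE, limma adjusted p = 6.7e-06), and at 24 h it was 1.63 ± 0.16 (adjusted p = 0.000415). Of the other conjugation genes, the protease gene ATG4 (0.79) and ATG3, which encodes the E2 enzyme for Atg8 (0.40), rose at 48 h, whereas ATG5, ATG7 and ATG10 did not pass the test. ATG12 (-0.48) and ATG16 (-0.86) were called lower at 48 h. On the values as deposited both pointed the other way, ATG12 at 0.31 and ATG16 at 0.66, and ATG16 was there called higher with an adjusted p of 0.00368, so their direction depends on the scaling.

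ATG16, which forms the E3-like complex with Atg12 and Atg5, was low throughout. It had 60.1, 62.9, 63.8 and 50.0 normalised reads at 48 h, against 31.3, 45.0 and 36.9 at log phase, so by reads every 48 h sample lay above every log phase sample, while the quantile-normalised change was negative. It also overlaps a gene on the opposite strand, which the counting, by strand, keeps apart.

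In the Atg1 complex, the kinase gene ATG1 had 628, 479, 560 and 460 normalised reads at 48 h on glucose, against 196, 228 and 181 at log phase. The groups were well apart, and the change was 1.09 ± 0.13 (SE, limma adjusted p = 0.000238). ATG11, the scaffold of selective autophagy, had 930, 811, 843 and 848 reads at 48 h, against 508, 429 and 405 at log phase (change 0.87 ± 0.10, adjusted p = 0.00016). The scaffold gene ATG17 (0.78) and the regulatory subunit gene ATG13 (0.42) rose as well, while ATG29 was at -0.22 and did not pass the test.

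Next came the genes of the growing membrane. ATG9, the scramblase whose vesicles seed the membrane, had 405, 371, 374 and 358 normalised reads at 48 h on glucose, against 191, 233 and 247 at log phase (change 0.43 ± 0.09, limma adjusted p = 0.00462). At 24 h it had 211, 213, 236 and 231, within the range of the young samples, so that its rise fell in the second day (48 h against 24 h, 0.58 ± 0.06, adjusted p = 0.000408). ATG23, which helps to move Atg9, rose by 1.05 and the lipid transfer protein gene ATG2 by 0.90. ATG14, the subunit that makes the lipid kinase complex specific to autophagy, and the PI3P-binding ATG18 and ATG21 did not pass the test at 48 h, and neither did ATG27.

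Among receptors and selective factors, the largest rises were in ATG33, a mitochondrial protein gene needed for mitophagy, and ATG34, a receptor for alpha-mannosidase. ATG33 had 750, 722, 824 and 664 normalised reads at 48 h on glucose, against 128, 166 and 172 at log phase (change 1.93 ± 0.11, limma adjusted p = 9.27e-06). ATG34 had 528, 382, 395 and 415 reads at 48 h, against 71.0, 92.2 and 97.1 at log phase (change 1.72 ± 0.14, adjusted p = 3.69e-05). In both genes every aged sample lay far above every young one, a separation that the rule for naming the largest changes required. ATG32, the mitophagy receptor, had 438, 397, 381 and 337 reads at 48 h, against 148, 179 and 154 at log phase (0.86 ± 0.11, adjusted p = 0.00033). ATG19, the receptor that brings aminopeptidase I to the vacuole, had 972, 769, 864 and 875 reads at 48 h, against 509, 506 and 678 at log phase (0.60 ± 0.13, adjusted p = 0.00383). The sterol glucosyltransferase gene ATG26, required for pexophagy in other yeasts, rose by 1.17, and the sorting nexin gene ATG20 did not pass the test. In the vacuole, ATG22, which exports amino acids from the breakdown, had 1002, 687, 814 and 655 reads at 48 h, against 272, 298 and 326 at log phase (1.22 ± 0.15, adjusted p = 0.000267), and the lipase gene ATG15 did not pass the test.

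**Figure D2:**
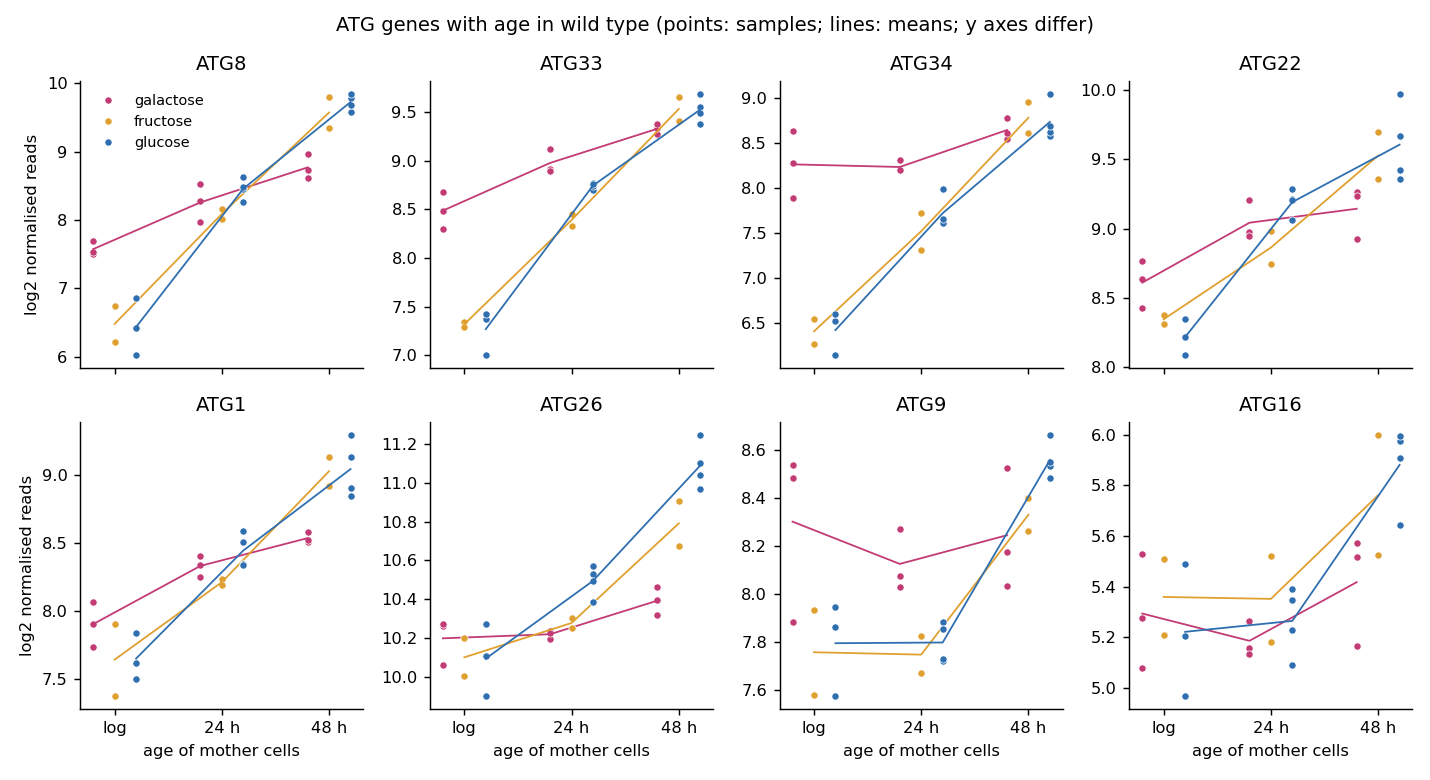
Log2 normalised reads (y axes) of 8 ATG genes at log phase, 24 h and 48 h (x axes) in wild type on galactose, fructose and glucose; points are samples and lines join group means. ATG8, ATG33, ATG34 and ATG22 climb on glucose and fructose, while on galactose ATG33 and ATG34 start higher at log phase and climb less.

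The first day on glucose gave fewer changes. At 24 h, 13 of 28 members were called, 9 higher and 4 lower, against 27.1% of all genes tested, 11.5% higher and 15.5% lower. The 8 rises called under both scalings were ATG8, ATG33 (1.26), ATG22 (0.87), ATG34 (0.85), ATG1 (0.62), ATG23 (0.49), ATG11 (0.47) and ATG32 (0.42). The 4 falls were those of ATG16 (-0.94), ATG14 (-0.94), ATG12 (-0.72) and ATG29 (-0.58), and as deposited none was called, with ATG16 at 0.04 and ATG29 at 0.20. On that scaling 10 members rose and none fell. The count was 7 without log phase replicate 1 or replicate 2 and 8 without log phase replicate 3 or 24 h replicate 3. From 24 h to 48 h 15 members rose and none fell, against 11.5% of all genes called higher and 13.2% lower, with ATG8 (1.21), ATG34 (0.85), ATG26 (0.73), ATG33 (0.72) and ATG17 (0.65) changing most. Among these 15, ATG8, ATG33, ATG34, ATG1, ATG23, ATG11 and ATG32 had already risen by 24 h. All 4 members right of the ribosomal DNA rose from 24 h to 48 h, against 33.7% of the segment's other genes. On the other chromosomes 11 of 23 members did, against 10% of genes. From log phase to 24 h, 3 of those 4 members rose, against 18.7% of the segment's other genes. The part of the segment was not tested. The single 72 h sample on glucose had ATG8 at 514 normalised reads, below all 4 samples of 48 h, and no member differed from the 48 h mean by 2-fold, against 0.757% of genes at least 2-fold higher and 1.28% lower. That sample came from another experiment and sequencing lane than the 48 h samples, so age and experiment cannot be told apart.

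Genes around the pathway were mixed at 48 h on glucose, where 19.8% of all genes were called higher and 30.2% lower. Of 14 core partners, such as the vacuolar fusion machinery, 4 rose and 6 fell, among them the lipid kinase gene VPS34 (0.50), which rose, and the vacuolar SNARE gene VAM7 (-1.01), which fell. Of 18 regulators, 4 rose and 2 fell: MSN4 (1.35), RIM15 (0.88), GCN4 (0.77) and RPH1 (0.46) were higher, and MSN2 (-0.67) and SNF1 (-0.52) lower. Of 11 vacuolar hydrolases and cargo proteins, 6 rose and 1 fell, with AMS1, the alpha-mannosidase that Atg19 and Atg34 carry, at 3.55, PRB1 at 2.02, PEP4 at 1.89 and LAP4, aminopeptidase I, at 1.80. Of 11 autophagy genes listed under other names, 6 rose and 1 fell, with YLR312C (ATG39, a receptor for the nuclear envelope) at 4.99, YIL024C (ATG45) at 1.67 and VPS30, which is also a core partner, at -0.50. YBR139W (ATG42) stands in the last 2 lists, and SNX4, like VPS30, also among the core partners.

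On galactose few autophagy genes passed the test. At 48 h against log phase, 2 of 28 members rose, ATG8 and ATG33, against 2.47% of all genes called higher. ATG8 had 499, 391 and 425 normalised reads at 48 h on galactose, against 181, 206 and 186 at log phase (change 1.11 ± 0.12, limma adjusted p = 0.0031). ATG33 had 621, 664 and 645 reads at 48 h, against 315, 410 and 359 at log phase (0.80 ± 0.12, adjusted p = 0.0094). Both sets of samples were fully separated, which the rule for naming the largest changes required, so it adds no support. With the experiment as a block, which the pairing of these samples allows, no member passed (9 had an unadjusted p under 0.05 in the fit without the block). The count was 0 without 48 h replicate 1 or 3 or log phase replicate 3, and 1 without 48 h replicate 2. At 24 h against log phase ATG16 (-0.68) was the 1 member called, against 0.552% of all genes called lower, and as deposited it was at -0.11 and not called. Without any 1 of 5 of the 6 samples it was not called. Between 24 h and 48 h limma called none of the 28 members, 6 having an unadjusted p under 0.05, against 0.136% of all genes.

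Other members on galactose gave values that did not pass the test at 48 h against log phase. ATG1 had 382, 367 and 364 normalised reads at 48 h, against 240, 213 and 268 at log phase (0.56 ± 0.11, limma adjusted p = 0.0215). ATG32 had 319, 338 and 346 reads at 48 h, against 218, 242 and 293 (0.34 ± 0.12, adjusted p = 0.102). In these 2 genes the groups did not overlap, as in 10 of 28 members, against 39.1% of all genes. ATG9 (-0.14), ATG19 (-0.10) and ATG11 (0.47) had adjusted p of 0.656, 0.785 and 0.119.

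The difference between the diets was tested as an interaction, the change from log phase to 48 h on galactose minus that on glucose. It was called in 8 of 28 members, all with a negative difference, against 8.00% of all genes tested, and 12 were called as deposited. ATG8 had the largest difference (-1.70 ± 0.20, limma adjusted p = 0.000199), followed by ATG34 (-1.43 ± 0.24, adjusted p = 0.00144), ATG33 (-1.14), ATG2 (-1.09), ATG26 (-1.0), ATG17 (-0.93), ATG23 (-0.83) and ATG4 (-0.76). Of these, ATG8 and ATG33 rose on galactose too, and the other 6 did not pass the test there, with changes of -0.20 for ATG2 and -0.15 for ATG17 and of 0.04 to 0.31 for the rest. ATG34, ATG33, ATG2 and ATG4 were not called between the sugars at 48 h. ATG34 and ATG33 were already called higher on galactose at log phase. At 48 h ATG34 was at 8.55 to 8.78 on the log2 scale on galactose and 8.58 to 9.05 on glucose. Of the 8, ATG17, ATG23, ATG26 and ATG33 lie on chromosome XII to the right of the ribosomal DNA, where the median of the 282 other genes tested was -0.39, against 0.10 on the other chromosomes. The part of that segment in the result was not tested. The count fell to 5 without galactose log phase replicate 2 or 3 or galactose 48 h replicate 3, and the fit with the experiment as a block gave 4.

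Young cells on the 2 sugars were compared next. At log phase, galactose against glucose, 2 members were called, both higher, against 6.14% of all genes. ATG34 had 237, 396 and 310 normalised reads on galactose, against 71.0, 92.2 and 97.1 on glucose (change 1.60 ± 0.22, limma adjusted p = 0.00496), and ATG33 had 315, 410 and 359, against 128, 166 and 172 (1.02 ± 0.15, adjusted p = 0.00667). Every galactose sample lay above every glucose sample in both genes, which the rule for naming the largest changes required, so it adds no support. ATG8 did not pass, with an adjusted p of 0.0261 (0.83 ± 0.19). No call remained without 1 of galactose log phase replicates 2 and 3 or any of the 3 glucose replicates.

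The shift experiment held the same contrast with 3 samples of each sugar, and called 16 of 28 members, 12 higher and 4 lower on galactose, against 21.8% of all genes called higher and 33.6% lower, with 18 higher and 1 lower as deposited, where the median of all genes was 0.10 higher. ATG34 had 306, 292 and 318 normalised reads on galactose, against 65.1, 55.7 and 53.2 on glucose (change 2.10 ± 0.08, limma adjusted p = 8.52e-06). ATG33 (1.22), ATG2 (1.18), ATG8 (0.88) and ATG29 (0.63) followed. ATG8 had 177, 186 and 162 reads on galactose, against 76.9, 79.2 and 65.2 on glucose. In all of these the sugars were fully separated, which the rule for naming the largest changes required, so it adds no support. ATG9 (0.51) and ATG19 (0.48) rose too, while ATG1, ATG11 and ATG32 did not pass the test. The 4 falls were those of ATG5 (-0.61), ATG12 (-0.45), ATG27 (-0.44) and ATG18 (-0.23), of which ATG27 was called under both scalings, with 869, 868 and 872 reads on galactose, against 1090, 1158 and 1166 on glucose. The samples pair by experiment here, and the blocked fit called 10, as did leaving out galactose replicate 1 or glucose replicate 2.

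**Figure D3:**
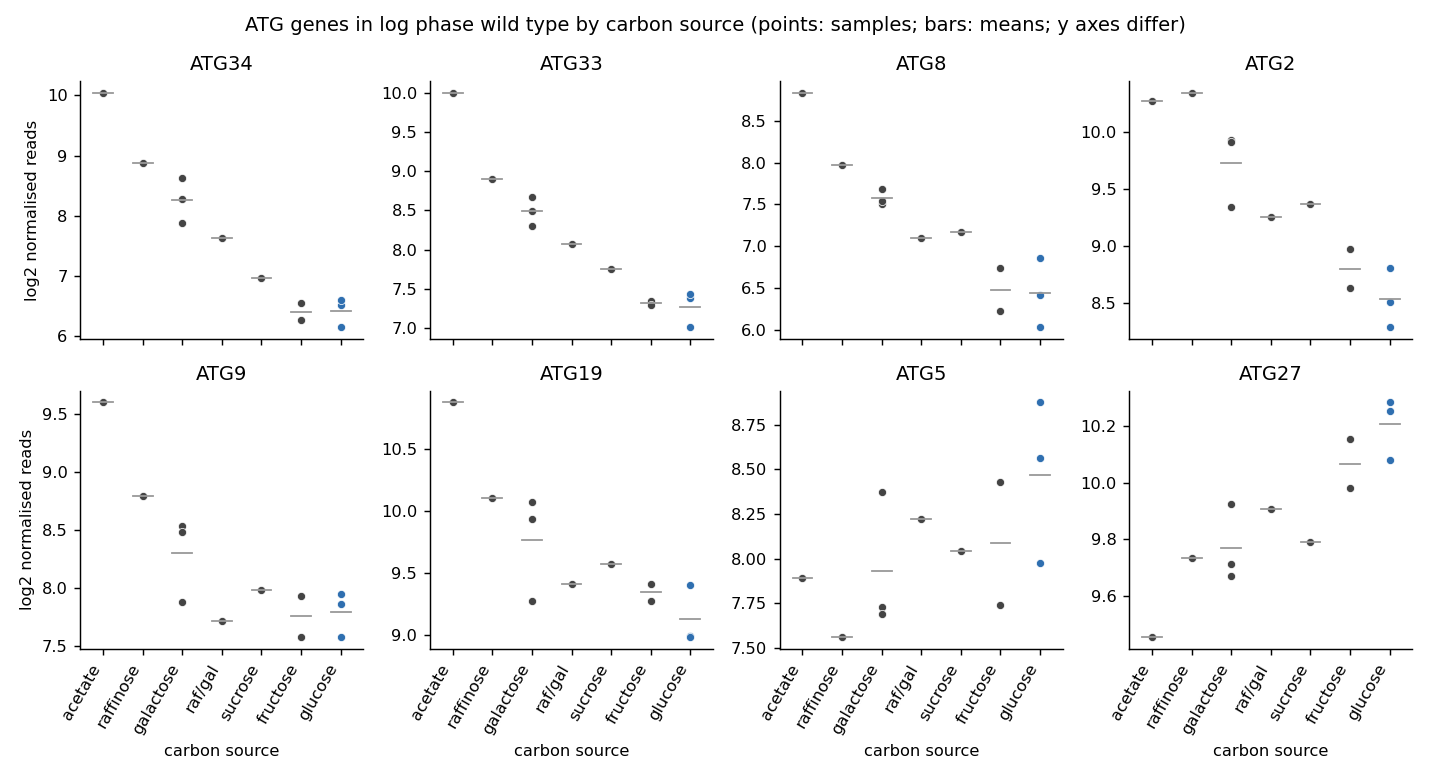
Log2 normalised reads (y axes) of 8 ATG genes in wild type at log phase, by carbon source (x axes); points are samples and bars group means, and glucose is drawn in blue. ATG34 and ATG33 are highest in the acetate sample and lowest on fructose and glucose, while ATG27 runs the other way.

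Other media had a single log phase sample each. On acetate, which cells can only respire, 15 of 28 members were at least 2-fold higher than the glucose mean and none 2-fold lower, against 16.3% of all genes 2-fold higher. ATG34 had 1056 normalised reads on acetate, against 71.0, 92.2 and 97.1 on glucose, a log2 difference of 3.62, and ATG8 had 457 reads. On raffinose 9 members were at least 2-fold higher, against 13.2% of all genes, again led by ATG34 with 470 reads. With raffinose and galactose together ATG34 alone was 2-fold higher (198 reads), against 6.12% of all genes, and on sucrose no member was, against 3.42%. ATG27 had 701 reads on acetate, below every log phase sample on glucose, fructose and galactose. With no replicates there is no test. The acetate and raffinose samples come from another experiment and sequencing lane than the glucose samples, so medium and experiment cannot be told apart there.

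The same media were followed with age in single samples. On acetate no member was 2-fold higher at 48 h or at 72 h than at log phase, against 5.75% and 7.99% of all genes. The paper states that cells divide slowly on acetate and matches 72 h there in age to 48 h on glucose. Counts at 48 h are therefore not at equal replicative age between acetate and glucose. ATG8 had 495 normalised reads at 48 h and 627 at 72 h on acetate, against 457 at log phase. On raffinose 5 members were 2-fold higher at 48 h, against 8.82%, led by ATG1 with 702 reads, against 228 at log phase. On sucrose 6 were, against 10.9% of all genes, with ATG8 at 590 reads, against 144 at log phase. With raffinose and galactose together 5 members were 2-fold higher at 48 h, against 8.24% of all genes, with ATG8 at 515 reads, against 137 at log phase. The differences between these media were not tested.

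On fructose the changes with age were led by the same 3 genes as on glucose. At 48 h against log phase 5 members rose and none fell, against 9.25% of all genes called higher and 10.1% lower: ATG8 (2.71 ± 0.23, limma adjusted p = 0.00246), ATG33 (1.99 ± 0.13, adjusted p = 0.00173), ATG34 (1.87), ATG22 (1.09) and ATG32 (0.85). ATG8 had 889 and 652 normalised reads at 48 h on fructose, against 107 and 74.5 at log phase. ATG1 was at 1.18 with an adjusted p of 0.0103. With 2 samples per group, no member was called once any 1 of the 4 was left out, and the count was 1 with no filter on low values and 9 as deposited, where the median of all genes was 0.14 higher. At 48 h fructose against glucose limma called none of the 28 members (1 with an unadjusted p under 0.05), and 0% of all genes. ATG8 differed by -0.16 ± 0.15 between them.

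At 24 h galactose against glucose called 7 members, 3 higher and 4 lower, against 7.50% and 6.63% of all genes, with ATG29 (0.49), ATG19 (0.38) and ATG2 (0.35) higher and ATG23 (-0.57), ATG26 (-0.32), ATG11 (-0.27) and ATG27 (-0.25) lower on galactose. Of these, ATG2, ATG19 and ATG23 were called under both scalings. ATG23 and ATG26 lie right of the ribosomal DNA, where 15.5% of the other genes were called lower, against 5.89% on other chromosomes. The part of that segment was not tested. Leaving out any 1 of the 7 samples gave 1 to 3 calls, the fewest without galactose replicate 1 or 3. In the shift experiment limma called none at 24 h (3 with an unadjusted p under 0.05), against 4.11% of all genes.

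At 48 h 5 members were lower on galactose than on glucose and none higher, against 6.78% of all genes called lower and 6.27% higher, under both scalings. ATG8 had 499, 391 and 425 normalised reads on galactose, against 881, 768, 824 and 917 on glucose (change -0.96 ± 0.11, limma adjusted p = 0.00118). ATG23 had 260, 253 and 247 reads on galactose, against 514, 501, 464 and 602 on glucose (-0.97 ± 0.10, adjusted p = 0.00078). ATG26 (-0.85), ATG17 (-0.69) and ATG11 (-0.54) were the others. The sugars did not overlap in any of the 5, which the rule for naming the largest changes required, so it adds no support. ATG17, ATG23 and ATG26 lie right of the ribosomal DNA on chromosome XII, where the other 305 genes had a median of -0.39, against 0.01 on the other chromosomes, and 3 of the 4 members of that segment were called lower, against 30.8% of its other genes. On the other chromosomes 2 of 23 members were, against 5.17% of genes, and ATG10, on the left arm, was not called. The part of the segment was not tested. ATG1 (-0.47, adjusted p = 0.0224), ATG9 (-0.24), ATG19 (-0.12) and ATG32 (-0.14) did not pass.

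The shift experiment asked whether early or late diet set the 48 h level. Cells that spent both days on galactose were lower than cells moved from glucose to galactose in 5 members, against 7.02% of all genes. ATG8 had 457, 456 and 447 normalised reads after galactose throughout, against 804, 661 and 772 after glucose then galactose (change -0.70 ± 0.08, limma adjusted p = 0.00358). ATG23 had 281, 255 and 259 reads, against 539, 500 and 439 (-0.82 ± 0.09, adjusted p = 0.00305). ATG26 (-0.73), ATG33 (-0.45) and ATG11 (-0.39) were also lower. None of the 5 overlapped, which the rule for naming the largest changes required, so it adds no support. The calls rested on all 6 samples: 0 or 1 remained when any single one was left out, 1 without glucose-to-galactose replicate 2 or 3. Both groups came from the same experiments, and with the experiment as a block no member was called. The lowest correlation between samples of one experiment was 0.096, just under the limit of 0.1 used here for pairing. Genes right of the ribosomal DNA had a median of -0.38, against 0.05 on other chromosomes. In that segment 3 of the 4 members were called lower, against 35.3% of its other genes. On the other chromosomes 2 of 23 members were, against 5.13% of genes. The part of that segment in the values of ATG23, ATG26 and ATG33 was not tested.

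In cells that ended on glucose, early galactose against early glucose gave no call by limma, while 14 of 28 members had an unadjusted p under 0.05 and 18 did not overlap, against 0% of all genes called and 40.4% not overlapping. ATG8 had 568, 532 and 513 normalised reads after galactose then glucose, against 943, 726 and 807 after glucose throughout (-0.59 ± 0.11, limma adjusted p = 0.0452). ATG1 had 438, 348 and 378 reads, against 636, 574 and 564 (-0.54 ± 0.10, adjusted p = 0.0447). Both genes were lower in every sample that began on galactose, although neither passed the threshold.

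The late diet was compared within each early diet. Glucose to galactose against glucose throughout gave no call by limma (5 with an unadjusted p under 0.05), against 3.05% of all genes, with ATG8 at -0.16 ± 0.12. Galactose to glucose against galactose throughout called ATG34 alone, which was lower, against 4.82% of all genes called lower, with 322, 317 and 302 normalised reads after the move to glucose, against 409, 419 and 409 on galactose throughout (-0.37 ± 0.05, limma adjusted p = 0.00606). It was not called with the experiment as a block, which the pairing allows, or without any 1 of the 6 samples.

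**Figure D4:**
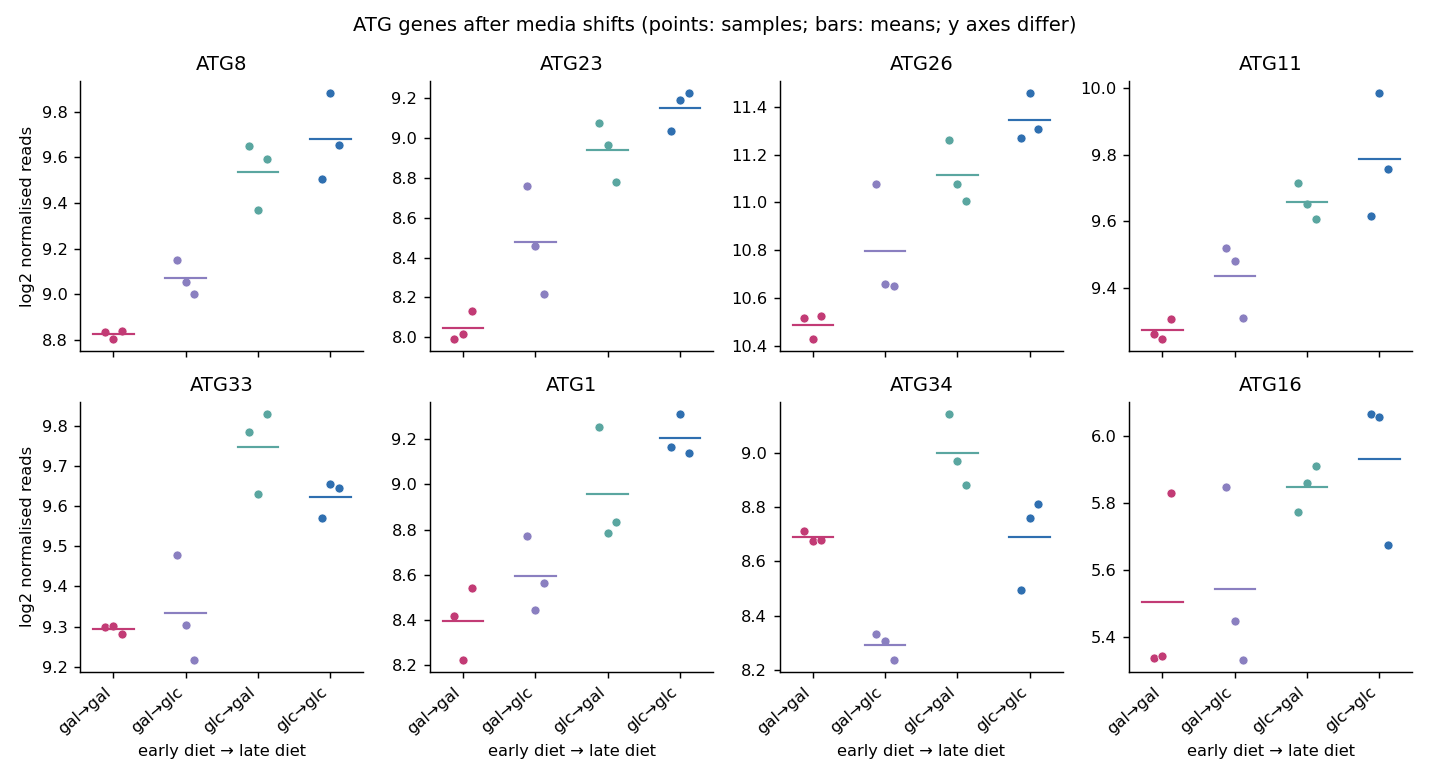
Log2 normalised reads (y axes) of 8 ATG genes at 48 h after each early and late diet (x axes, early diet then late diet); points are 3 samples per group and bars group means. ATG8 is lower in both groups that began on galactose than in both that began on glucose, and ATG34 is lowest after galactose then glucose.

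The first day of the shift experiment was compared in the same way. On glucose, 24 h against log phase, 5 members rose and 2 fell, against 9.02% of all genes called higher and 9.76% lower: ATG8 (1.76), ATG33 (1.54), ATG34 (1.40), ATG22 (0.88) and ATG1 (0.73) were higher, while ATG16 (-0.80) and ATG14 (-0.64) were lower but stood at 0.14 each as deposited. ATG8 had 428, 277 and 288 normalised reads at 24 h, against 76.9, 79.2 and 65.2 at log phase. The count was 4 without any 1 of the 3 log phase samples. On galactose ATG5 (0.59) rose and ATG16 (-0.98) and ATG14 (-0.71) fell, against 6.82% of all genes called higher and 4.97% lower, and ATG5 and ATG14 were called under both scalings. ATG5, part of the E3-like complex, had 278, 297 and 284 reads at 24 h on galactose, against 191, 190 and 197 at log phase. That count was 0 without any 1 log phase sample, 1 without 24 h replicate 3 and 7 without 24 h replicate 1.

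Strains altered in respiration or in its regulation gave no call among the autophagy genes. The cox9 gal80, cat8 and snf4 samples on galactose came from the same experiment and sequencing lane, and most wild type galactose samples from others. Strain and experiment therefore cannot be fully told apart on galactose. PGPD-HAP4 against wild type on glucose gave no call by limma at log phase, 24 h or 48 h (5, 4 and 2 members with an unadjusted p under 0.05), against 2.04%, 1.47% and 0% of all genes. ATG8 had 864 and 806 normalised reads at 48 h in PGPD-HAP4 cells, against 881, 768, 824 and 917 in wild type (-0.03 ± 0.10). PGPD-HAP4 cells had 11 members at least 2-fold higher at 48 h than at log phase, against 13.4% of all genes. On galactose at 48 h, cox9 gal80 gave no call (6 with an unadjusted p under 0.05), against 0.219% of all genes, and 1 call without cox9 gal80 replicate 2. The paper reports that cox9 gal80 cells had reached a much lower replicative age than wild type, so strain and replicative age cannot be told apart. Its ATG8 had 697 and 474 reads, against 499, 391 and 425 in wild type (0.40 ± 0.19, limma adjusted p = 0.271). The 4 members right of the ribosomal DNA had a median change of 0.71 in cox9 gal80, beside 0.38 for the other 293 genes of that segment, and the part of the segment was not tested. cat8 on galactose at 48 h gave no call (4 with an unadjusted p under 0.05), against 0.219% of all genes. snf4 at 24 h gave none (11 with an unadjusted p under 0.05), against 3.33%, with ATG11 closest, at 773 and 826 reads in snf4, against 529, 562 and 533 in wild type (0.55 ± 0.07, adjusted p = 0.0112). The paper states that snf4 cells died very young, and the part of replicative age in that comparison was not tested.

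Among the 13 deletion strains aged on glucose, which have 1 library per age and so no test, ATG8 was higher at 48 h than at log phase in all 13, by 1.19 on the log2 scale in hap4 to 4.00 in rox1, beside 3.10 in wild type of the same table. Between 2 and 15 members were at least 2-fold higher and none 2-fold lower, against 7.62% to 16.6% of all genes 2-fold higher, and wild type had 14, against 15.9%. The low ends were cat8, with ATG8 and ATG34 only, against 7.62% of all genes, and hap4, with ATG8, ATG10 and ATG32, against 11.4%. The 14 of wild type included ATG17, ATG23, ATG26 and ATG33, right of the ribosomal DNA, of which cat8 and hap4 had none. The part of that segment was not tested. In hap4, which lacks the activator of respiration genes, ATG8 had 404 normalised reads at 48 h, against 177 at log phase, and wild type had 904 and 844 at 48 h, against 87.1 and 119 at log phase. The cat8 strain, which lacks an activator of gluconeogenesis, was at least 2-fold below wild type at 48 h in ATG8, ATG7, ATG1, ATG33 and ATG16, against 9.53% of all genes. The deletion strains and the wild type of this table come from different experiments and sequencing lanes, so strain and experiment cannot be told apart. ATG33 and ATG34 were higher at 48 h in all 13 strains as well, least in hap4 (0.38 and 0.68) and most in tec1 (2.40) and rox1 (3.21). ATG27 was lower at 48 h in all but 1 strain.

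The WGA fractions of 48 h PGPD-HAP4 cells compared cells of one strain and time in culture by bud scar stain. The paper uses WGA stain as a metric of replicative age and describes low WGA cells as the youngest, having stopped dividing rapidly. Fraction and replicative age therefore cannot be told apart. The sort also used GFP, a tag on the mitochondrial protein Tom70, and in 1 of the 2 sorts the titles give the low WGA fraction as high in GFP and the high WGA fraction as low, so stain and GFP cannot be told apart. In low against high WGA 7 members were called, all higher in low WGA cells, against 11.6% of all genes called higher, and the members' median change was 1.18, against -0.03 over all genes. With the sort as a block 19 were called. The count was 0 without either high WGA sample, 15 without low WGA replicate 1 and 14 without low WGA replicate 2, and it was 4 after quantile normalisation, where the median of all genes was 0.20 lower. ATG17 had 1347 and 1863 normalised reads in low WGA cells, against 122 and 152 in high WGA cells (3.54 ± 0.30, limma adjusted p = 0.0014). ATG23 (3.44), ATG26 (3.02) and ATG33 (2.64) came next. These are the 4 members right of the ribosomal DNA, where the other 271 genes had a median change of 2.63, against -0.15 on the other chromosomes, and 75.7% of those genes were called higher, so the 4 moved with their segment, whose part in the result was not tested. The low WGA samples held 2256787 and 565971 reads, against 5483467 and 5455873 in the high WGA samples, and the part of depth was not tested either.

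On the other chromosomes 3 of 23 members were called higher in low WGA cells, ATG15, ATG1 and ATG20, against 6.82% of the other genes there, and ATG10, on the left arm of chromosome XII, was not called. ATG15, the vacuolar lipase, had 466 and 626 normalised reads in low WGA cells, against 84.4 and 129 in high WGA cells (2.37 ± 0.33, limma adjusted p = 0.00526), and log phase PGPD-HAP4 cells had 308 and 261. ATG1 had 493 and 553 reads in low WGA cells, against 106 and 160 in high WGA cells (2.00 ± 0.30, adjusted p = 0.00654). In both, the high WGA samples lay below log phase and the low WGA samples above it. ATG8 had 571 and 1019 reads in low WGA cells, against 206 and 280 in high WGA cells (1.67 ± 0.37, adjusted p = 0.0182), with medium cells at 551 and 511 and log phase at 101 and 113. ATG32 (1.89), ATG11 (1.13), ATG9 (1.02) and ATG19 (0.99) had adjusted p of 0.0131, 0.0394, 0.0397 and 0.0324. ATG27 ran the other way, with 959 and 495 reads in low WGA cells, against 1246 and 1201 in high WGA cells. In the wild type pair 16 members were at least 2-fold higher in the low fraction, against 15.3% of all genes, and ATG27 alone was 2-fold lower, against 11.6%. This pair has 1 library per fraction, with 561582 reads in the low and 5389581 in the high one. The 16 include ATG17, ATG23, ATG26 and ATG33, right of the ribosomal DNA. The parts of depth and of the segment were not tested. High WGA PGPD-HAP4 cells against log phase had 2 members 2-fold higher, ATG33 and ATG8, against 8.03% of all genes, and 2 lower, ATG29 and ATG15, against 4.48%.

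**Figure D5:**
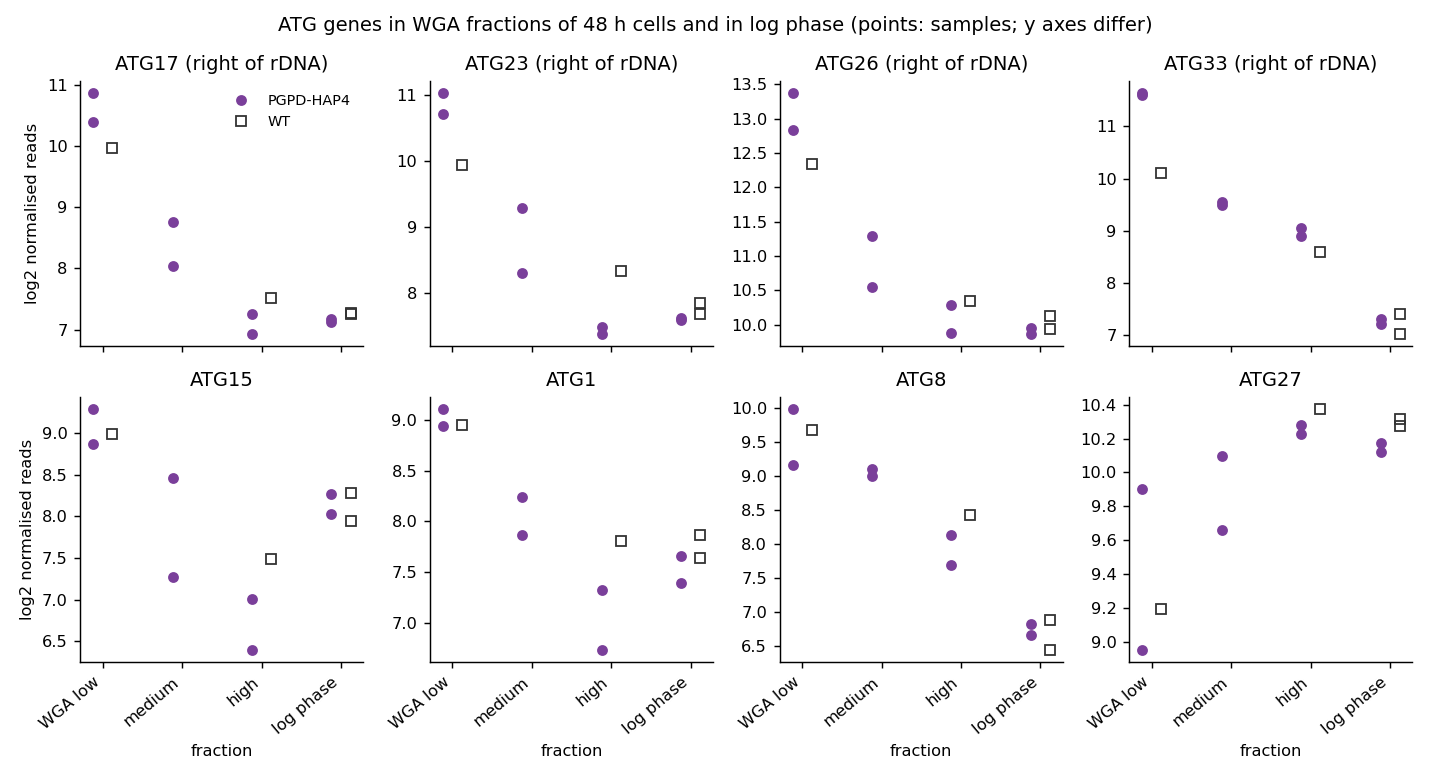
Log2 normalised reads (y axes) of 8 ATG genes in low, medium and high WGA fractions of 48 h cells and in log phase cells (x axes); filled circles are PGPD-HAP4 and open squares wild type samples. The 4 genes right of the rDNA (upper row) are highest in low WGA cells, and ATG27 is lowest there.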

How the data were processed

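RNA of 118 samples was read as 75 bp single-end sequences. Per the labels and the study's methods, the authors trimmed reads with Trim Galore 0.6.6, aligned them with HISAT2 2.1.0 to the R64 genome, counted them by strand over each gene in SeqMonk and corrected by size factors. The 4 deposited tables hold log2 values of these normalised counts, on which count models were not run, and reads per sample were recovered from the steps of the values. After 28 mitochondrial rows were dropped, 6664 nuclear genes remained.

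Differences were tested with limma 3.58.1 (R 4.3.3) on quantile-normalised log2 values of the samples compared, for genes that averaged 2 or more on the log2 scale in the reference samples (4, that is 16 reads, and values as deposited, for sorted fractions), with Benjamini-Hochberg adjustment over all genes tested and a threshold of 0.01. There were 26 pairwise tests and 1 interaction. Single samples were compared by a 2-fold difference. The script was tested on simulated data. Alternatives were values as deposited or quantile-normalised, other filters, a threshold of 0.05, a spread shared over all groups, a block for the experiment, and leaving out each sample.

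The experiment number pairs samples where every pair's deviations from the group means correlated over 0.1 with at least 3 pairs. This held in 7 comparisons, with lowest correlations of 0.101 (galactose 48 h against log phase), 0.280 (galactose 48 h against 24 h), 0.158 (shift, glucose 24 h against log phase), 0.124 and 0.159 (shift, galactose against glucose at log phase and 24 h), 0.108 and 0.118 (late diet after glucose and after galactose). Low and high WGA fractions were sorted from the same populations.

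The genes named were ATG8, ATG1, ATG9, ATG32, ATG19 and ATG11, and for each test up to 5 called members per direction whose groups did not overlap; other members are named where a count or role group is spelt out. For members named by that rule, non-overlap was a condition of naming and not a further result. Members and lists were chosen with earlier results of these data known.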

Additional observations from a re-analysis of the deposited data

Results flagged for a closer look

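Samples that stood apart were sought in the groups of 4, glucose at 24 h and at 48 h, over the 28 members, and 3 of 56 sets of values had an extreme sample past Dixon's 95% limit, where chance gives about 1 in 20. ATG15 was at 8.998 on the log2 scale in glucose 24 h replicate 4, above the 8.273 to 8.364 of the others. ATG34 was at 7.989 in glucose 24 h replicate 3, above 7.617 to 7.664. ATG12 was at 7.453 in glucose 48 h replicate 4, above 7.223 to 7.227.

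The change from log phase to 48 h differed between galactose and glucose by the interaction test in 8 members, each with a negative difference, galactose minus glucose. The differences on the log2 scale were -1.702 for ATG8, -1.426 for ATG34, -1.141 for ATG33, -1.091 for ATG2, -1.0 for ATG26, -0.9324 for ATG17, -0.8271 for ATG23 and -0.7589 for ATG4.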

How the results depend on the processing

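Of 78 results for single named members, 24 kept their call in every alternative tried. Leaving out a sample lost the call in 189 of 521 fits, the replicate block in 40 of 78, no filter in 15 of 78, a shared spread in 11 of 78 and values as deposited in 11 of 73. As deposited, 6 changes turned positive: ATG16 (0.043) and ATG29 (0.20) at glucose 24 h, ATG16 (0.66) and ATG12 (0.31) at glucose 48 h, and ATG16 (0.14) and ATG14 (0.14) at glucose 24 h in the shift experiment; the cause was not tested.

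Counts of called members that moved by over 1.5 times follow, against the counts in the report. At a threshold of 0.05 they were 2 (galactose 24 h against log phase), 4 (galactose 48 h against log phase), 12 (fructose 48 h against log phase), 7 and 11 (galactose against glucose at log phase and 24 h), 4 (snf4), 11 and 10 (shift, glucose and galactose 24 h against log phase), 3 (galactose then glucose against galactose throughout), 14 (galactose throughout against glucose then galactose), 2 (galactose then glucose against glucose throughout), 18 (WGA) and 13 (interaction). With the replicate block they were 3 (glucose 24 h against log phase), 0 and 0 (galactose 24 h and 48 h), 2 (fructose), 0, 0 and 0 (galactose against glucose at log phase, 24 h and 48 h), 0 (shift, galactose 24 h), 10 (shift, galactose against glucose at log phase), 0 (galactose then glucose against galactose throughout), 0 (galactose throughout against glucose then galactose), 19 (WGA) and 4 (interaction). With a shared spread they were 2 and 5 (galactose 24 h and 48 h), 12 (fructose), 9 and 2 (galactose against glucose at log phase and 24 h), 4 (cox9 gal80), 2 (snf4), 11 and 8 (shift, glucose and galactose 24 h), 2 (shift, galactose against glucose at 24 h), 11 (galactose throughout against glucose then galactose) and 4 (galactose then glucose against glucose throughout). With no filter they were 1 (galactose 48 h), 1 (fructose), 0 (galactose against glucose at log phase) and 3 (WGA). As deposited they were 0 (galactose 24 h), 9 (fructose), 4 (galactose against glucose at 24 h) and 1 (snf4). With a mean log2 of at least 4 they were 10 (fructose), 1 (snf4) and 5 (shift, galactose 24 h), and WGA gave 4 after quantile normalisation.

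Leaving out single samples gave 7 to 11 (glucose 24 h against log phase), 13 to 17 (48 h against log phase), 10 to 14 (48 h against 24 h), 0 to 1 and 0 to 2 (galactose 24 h and 48 h), 0 to 0 (fructose), 0 to 3, 1 to 3 and 4 to 5 (galactose against glucose at log phase, 24 h and 48 h), 0 to 1 (cox9 gal80), 4 to 10 and 0 to 7 (shift, glucose and galactose 24 h), 10 to 14 (shift, galactose against glucose at log phase), 0 to 0 (galactose then glucose against galactose throughout), 0 to 1 (galactose throughout against glucose then galactose), 0 to 15 (WGA), 5 to 11 (interaction) and 0 in all other comparisons. The block could not be fitted for PGPD-HAP4 at log phase, cox9 gal80, cat8 and snf4, which share under 2 experiments with wild type, and where the numbers do not pair the samples it shares only a number. Groups of 1 to 4 samples and the shallow sorted fractions limit what could be called.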
